A study of Homo sapiens with 4 samples.

Results

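Small secreted protease inhibitors of the WAP and Kazal families were examined in Huh7 cells, an established human line of hepatocellular carcinoma origin. The 5 genes were PI3, SLPI and WFDC2, whose products carry WAP domains, and SPINK1 and SPINK4, whose products carry a Kazal domain. They were found by symbol, 5 of the 18806 genes in the table, and were chosen from values of the comparison described here, since PI3 showed the largest rise and SPINK4 a strong fall. Their differences between the groups are therefore given as a description, without a test. The control group (sgNS, 2 libraries) carried a non-targeting guide and is labelled WT. The METTL16 KO group (2 libraries) carried a METTL16 guide and is labelled METTL16 knockdown. According to the methods, Cas9 single clones chosen for editing efficiency received the guide by lentivirus and were selected with hygromycin B. Whether both groups came from the same clone of Huh7 is not stated there. METTL16 is an RNA N6-methyladenosine methyltransferase. The methods call the libraries of a group biological replicates, without saying whether they came from separate transductions, cultures or guides, so that p-values measure the spread between these libraries only.

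WAP and Kazal inhibitors are short, cysteine-rich proteins whose exposed loop enters the active site of a serine protease and blocks it. Elafin, the product of PI3, inhibits neutrophil elastase and proteinase 3 and can be crosslinked to extracellular matrix by transglutaminases. SLPI, the secretory leukocyte protease inhibitor, acts on neutrophil elastase and cathepsin G, and both proteins are made by mucosal epithelia and the skin. WFDC2 is secreted by airway and reproductive tract epithelia and by ovarian carcinoma. SPINK1, the pancreatic secretory trypsin inhibitor, protects the pancreas from early activation of trypsin and is also made by some liver tumours, whereas SPINK4 is a product of intestinal goblet cells.

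Levels are in TPM, the share of a gene's transcripts per 1000000 transcripts, which is scaled for transcript length. In GENCODE release 44 on GRCh38, PI3 lies at chr20:45174902-45176544 on the plus strand, SLPI at chr20:45252239-45254564 on the minus strand and WFDC2 at chr20:45469753-45481532 on the plus strand. The start of PI3 is 79.7 kb from that of SLPI and 295 kb from that of WFDC2. SPINK1 lies at chr5:147824572-147831671 on the minus strand and SPINK4 at chr9:33218365-33248567 on the plus strand. All are short messages, with canonical transcripts of 399 bases for SPINK4, 413 for SPINK1, 551 for PI3, 567 for WFDC2 and 596 for SLPI, in 3 exons for PI3 and 4 exons for each of the others. The span of the canonical SPINK4 transcript overlaps that of the BAG1 gene, on the other strand, by 748 bases, introns not taken out. The methods name a stranded library kit but not whether reads were counted by strand. Within this overlap the 2 genes therefore cannot be fully told apart.

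The 250 bases before the RefSeq start (GRCh38.p14) are shown for SPINK1 and SPINK4, the members above 1 TPM in all 4 libraries, whose levels moved in opposite directions. SPINK1 is read on the minus strand at chr5:147831672-147831921 and SPINK4 on the plus strand at chr9:33239917-33240166. Capitals mark matches to the motifs searched on both strands, TATAAA (the TATA box), GATAAG (bound by GATA factors), TGANTCA (AP-1), TTCNNNGAA (STAT factors) and an NF-kB motif.
SPINK1: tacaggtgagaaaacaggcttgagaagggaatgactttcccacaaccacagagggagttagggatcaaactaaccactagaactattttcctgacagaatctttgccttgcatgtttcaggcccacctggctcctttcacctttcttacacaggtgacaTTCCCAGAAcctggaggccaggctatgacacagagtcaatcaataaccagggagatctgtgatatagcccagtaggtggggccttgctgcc
SPINK4: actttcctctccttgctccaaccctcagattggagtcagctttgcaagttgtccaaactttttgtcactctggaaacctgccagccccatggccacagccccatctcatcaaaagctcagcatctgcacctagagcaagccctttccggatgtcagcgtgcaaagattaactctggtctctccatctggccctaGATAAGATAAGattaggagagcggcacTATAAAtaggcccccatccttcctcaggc
The SPINK4 window held 2 overlapping GATAAG matches, starting 56 and 51 bases before the start, and a TATAAA match starting 29 bases before it. GATAAG was found in 5.65% and TATAAA in 10.7% of the 35116 promoter windows of the same length. The SPINK1 window held 1 TTCNNNGAA match, starting 91 bases before the start, a motif found in 6.57% of all windows. Neither window held TGANTCA (6.57% of all windows) or the NF-kB motif (1.73%). The WFDC2 window held none of the 5 motifs, and PI3 and SLPI were not among the promoters used here. A match describes the letters of the window and was not tested as a binding site.

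Each gene with a mean of at least 1 TPM was tested by limma on log2(TPM + 0.1) and was called where its Benjamini-Hochberg adjusted p was under 0.05 and its log2 fold change 1 or more in either direction. Over all 11971 genes tested, 7.70% were called higher and 3.77% lower. METTL16, the targeted gene, had 26.3 and 25.1 TPM in the sgNS libraries against 17.6 and 18.8 TPM after its own guide. It fell by 0.50 on the log2 scale (SE 0.062, adjusted p of 2.4e-05, limma). A partial fall of the message is no measure of the protein, which was not measured in these libraries. The defining hepatocyte genes were abundant in all libraries (10 of 10 tested), with a summed level of 18116 to 18198 TPM in sgNS and 30958 to 31423 TPM in METTL16 KO, and 2 of them, AFP (2.54) and FGB (1.84), were called higher on the log2 scale. Of 6 squamous epithelium markers, 5 were at 0 in every library, KRT5 and KRT14 included, and the summed level of 9 leukocyte markers was 14.6 to 15.7 TPM in METTL16 KO, inside the range of the sgNS libraries, whose lower sum was 14.2 TPM, with CD68 called higher (1.49) and CSF3R lower (-1.42). The 7 fibroblast and endothelial markers summed to 7.02 to 7.72 TPM and 5.22 to 6.12 TPM, and the 5 bile duct markers, nearly all of it SOX9 and EPCAM, to 251 to 252 TPM and 241 to 242 TPM, with KRT7 and KRT19 at 0.21 TPM or less in every library.

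All 5 inhibitor genes had groups that did not overlap. PI3, SLPI, WFDC2 and SPINK1 were higher in both METTL16 KO libraries and SPINK4 was lower in both. Among the 16350 genes above 0 in at least 1 library, 52.2% were higher and 24.8% lower in this sense, and since the members were chosen on this contrast nothing is read from their count. The members ranged from an abundant message to messages listed at or near 0 in sgNS.

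**Figure D1:**
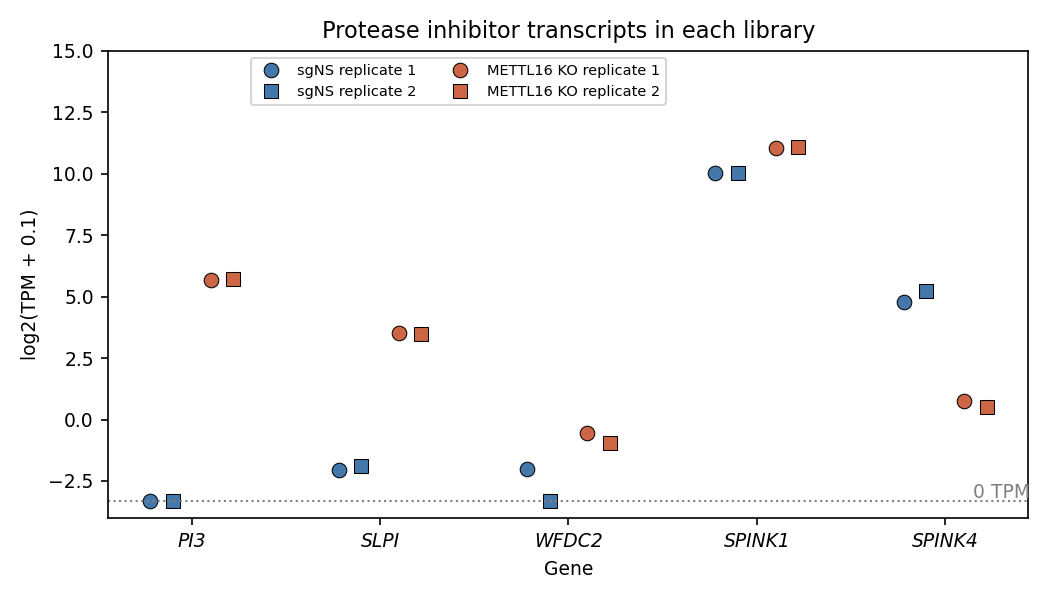
Level of each inhibitor gene in each library, as log2(TPM + 0.1); circles are replicate 1 and squares replicate 2 of sgNS (blue) and METTL16 KO (orange), and the dotted line marks 0 TPM. PI3 sits on the dotted line for sgNS and at 51.3 and 53.0 TPM for METTL16 KO, while SPINK4 is the gene whose METTL16 KO points lie below its sgNS points.

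PI3 was listed at 0 in sgNS replicates 1 and 2, whereas METTL16 KO replicates 1 and 2 had 51.3 and 53.0 TPM. The METTL16 KO libraries were close to each other (52.2 ± 1.2 TPM, SD, n = 2), and PI3 ranked 3424th and 3303rd among all genes in them. No fold is given against a group listed at 0. SLPI, the neighbour of PI3, was at 0.14 and 0.17 TPM (sgNS) against 11.4 and 11.0 TPM (METTL16 KO). Its mean was 72.3 times the sgNS mean, with ratios of 64.5 to 81.6 for single pairs of libraries, and its log2 fold change on the log2(TPM + 0.1) scale was 5.47 (SE 0.19). For both genes every METTL16 KO library was far above every sgNS library, with PI3 at the higher level per length in METTL16 KO. PI3 and SLPI passed the minimum mean of 1 TPM for the fit across genes only through the METTL16 KO libraries.
WFDC2, the WAP gene farther along the same chromosome, stayed low. It was at 0.15 and 0 TPM (sgNS) against 0.58 and 0.42 TPM (METTL16 KO), under the minimum mean of 1 TPM, so that it was not fitted. In the sgNS libraries its values overlapped those of SLPI, and in METTL16 KO it was the lowest of the 5 genes.

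SPINK1 was the most abundant of the inhibitors in every library. It was at 1036 and 1044 TPM (sgNS) against 2106 and 2145 TPM (METTL16 KO), 2.04 times the sgNS level (2.02 to 2.07 for single pairs). Its rank among all genes went from 143rd in both sgNS libraries to 55th and 52nd in METTL16 KO. The log2 fold change was 1.03 (SE 0.025), against a median of 0.16 over all 11971 genes tested. Scaling each library by its median ratio, which brings that median to 0, put SPINK1 at 0.87, and quantile normalization put it at 1.23. SPINK4 moved the other way. It was at 27.4 and 37.3 TPM (sgNS) against 1.60 and 1.31 TPM (METTL16 KO). The sgNS mean was 22.2 times the METTL16 KO mean (17.1 to 28.5 for single pairs), and SPINK4 fell by 4.37 on the log2 scale (SE 0.14), the second largest fall of all genes tested. BAG1, which overlaps it on the other strand, was at 8.82 and 9.07 TPM (sgNS) against 14.8 and 15.9 TPM (METTL16 KO), so that the overlapping gene had the opposite direction.
The summed level of the 5 genes was 1064 and 1081 TPM (sgNS) against 2171 and 2211 TPM (METTL16 KO). SPINK1 made up 96.5% to 97.4% of this sum in every library. PI3 went from 0% to 2.36% and 2.40% of it, and SPINK4 from 2.58% and 3.45% to 0.0737% and 0.0593%. In bulk RNA, a change in the share of cells that express a gene and a change in the RNA per cell cannot be told apart.

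The genes with the 4-library profile nearest to each member were found by Euclidean distance between profiles of log2(TPM + 0.1) centred on their means, over 4 libraries, which mostly compares the size of the difference between the groups. PI3 was nearest to SAA4 (distance 1.53), an acute-phase apolipoprotein gene at 0.1 and 0.29 TPM (sgNS) against 52.3 and 61.2 TPM (METTL16 KO), then to TM4SF20 (2.56) and SAA1 (2.87). SLPI was nearest to GUCY2C (distance 0.26), the intestinal guanylate cyclase receptor, at 1.06 and 0.94 TPM (sgNS) against 45.2 and 44.1 TPM (METTL16 KO), then to CASP5 (0.37) and HABP2 (0.39). SPINK1 was nearest to SAP30, NUTM2B and CIZ1, all at a distance of 0.02. Among the genes with a profile close to that of SPINK4 were LAMA4 (distance 0.88), a laminin chain gene at 8.58 and 8.90 TPM (sgNS) against 0.49 and 0.69 TPM (METTL16 KO), and HAL (0.90), which encodes histidine ammonia-lyase.

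The other genes of these inhibitor families were compared to see how the members stand among their relatives. Of the 15 other WAP genes in the table, 6 were at 0 in all libraries and 0 reached the minimum mean of 1 TPM, so that they were left out of the fit. The highest value among them was 0.58 TPM, for WFDC10A in sgNS replicate 1, and WFDC10A had overlapping groups (0.58 and 0.24 against 0 and 0.54 TPM). WFDC3 was at 0.14 and 0.25 TPM (sgNS) against 0.09 and 0 TPM (METTL16 KO). WFDC5 and WFDC12, which lie 59.7 and 50.4 kb from PI3, were at 0.09 TPM in 1 METTL16 KO library and at 0 in all libraries, respectively.
Of the 25 other genes with Kazal or follistatin-like domains, 12 were tested, 2 were called higher and 3 lower, with a median log2 fold change of -0.25. Over all genes tested, 7.70% were called higher and 3.77% lower, with a median of 0.16. AGRN, which encodes the basement membrane proteoglycan agrin, fell from 25.1 ± 4.0 to 5.07 ± 0.31 TPM (mean ± SD, 2 libraries each), and SPOCK2, a matrix proteoglycan gene, fell from 4.12 to 1.77 TPM. TMEFF1 fell by 1.02 on the log2 scale (adjusted p of 0.0038, limma), a call that was lost without sgNS replicate 1 (adjusted p of 0.063, limma) and without METTL16 KO replicate 2 (adjusted p of 0.074, limma). FSTL1 and SPARC, secreted matrix-associated proteins, rose to 2.37 ± 0.25 and 1.91 ± 0.014 TPM from 0.590 ± 0.17 and 0.485 ± 0.12 TPM (mean ± SD, 2 libraries each). Both passed the minimum mean of 1 TPM only through the METTL16 KO libraries. Of the other SPINK genes, SPINK5 was the only one tested, at 1.70 and 1.69 TPM (sgNS) against 1.94 and 1.83 TPM (METTL16 KO) (log2 fold change 0.14, adjusted p of 0.46, limma). SPINK6 and SPINK13, both in the cluster of SPINK1 on chromosome 5, were at 0 in sgNS and at 0.52 and 0.19 TPM and at 0.23 and 0.25 TPM in METTL16 KO. SPINK2, SPINK7, SPINK8, SPINK9 and SPINK14 were at 0 in all 4 libraries.
Of 10 genes with a Kunitz domain, another fold of small protease inhibitors, 7 were tested, 2 were called higher and 1 lower, with a median of 0.49. The shares over all genes tested were 7.70% higher and 3.77% lower (median 0.16). TFPI2, an inhibitor of plasmin and other matrix-degrading proteases, rose from 1.44 ± 0.73 to 9.93 ± 0.45 TPM (mean ± SD, 2 libraries each). SPINT1, an inhibitor of the membrane proteases matriptase and hepsin, rose from 0.880 ± 0.057 to 3.29 ± 0.21 TPM (mean ± SD, 2 libraries each). SPINT1 passed the minimum mean of 1 TPM only through the METTL16 KO libraries. PAPLN fell by 1.20 on the log2 scale and passed that minimum only through the sgNS libraries. AMBP, which encodes the plasma inhibitor bikunin and was the only gene of these inhibitor lists above SPINK1 in mean level, was at 1564 ± 50 TPM (sgNS) against 2996 ± 15 TPM (METTL16 KO; mean ± SD, 2 libraries each; log2 fold change 0.94, adjusted p of 3.9e-10, limma), just under the fold threshold. Quantile normalization put AMBP past the threshold, at 1.19.

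**Figure D2:**
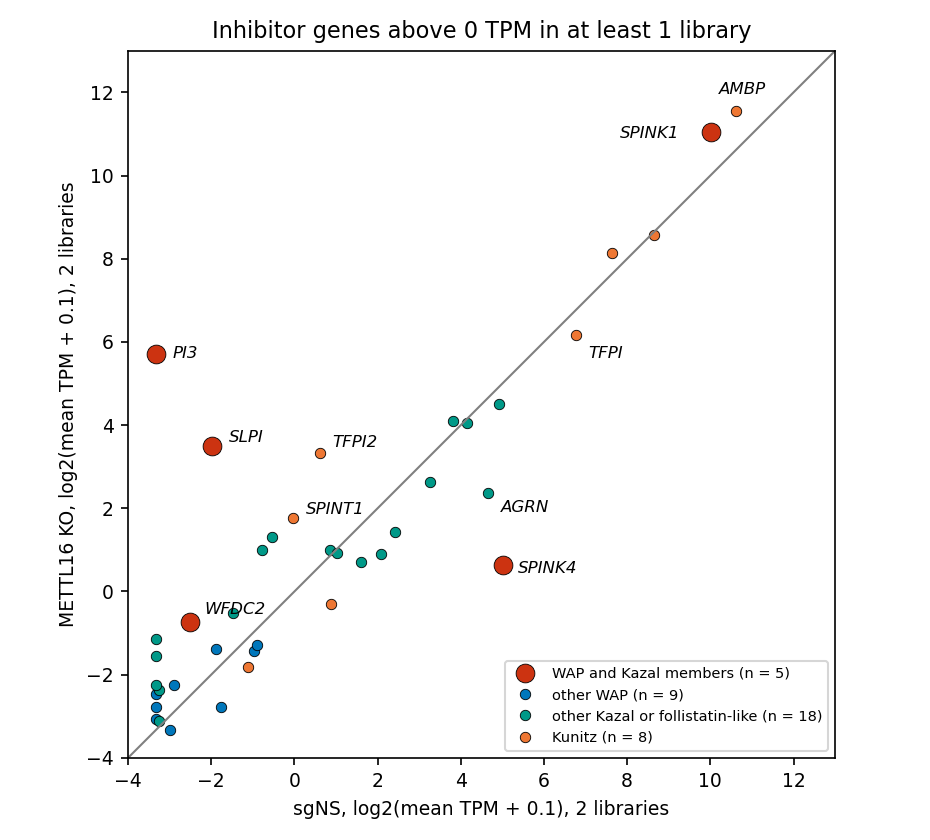
Mean level in METTL16 KO against sgNS, both as log2(mean TPM + 0.1) over 2 libraries, for inhibitor genes above 0 TPM in at least 1 library; red points are the 5 members, blue other WAP, green other Kazal or follistatin-like and orange Kunitz genes, and the line marks equal levels. PI3 and SLPI stand far above the line and SPINK4 far below it, and the 9 other WAP genes lie below 1 TPM in both groups.

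Genes of the serine protease family, to which the targets of such inhibitors belong, were mostly low or absent. The list was not limited to targets of the 5 members. Of 45 in the table, 22 were at 0 in all libraries and 7 were tested, of which 3 were called higher and 1 lower (median 0.69). This stands beside 7.70% higher and 3.77% lower over all genes tested (median 0.16). Of the trypsin genes, PRSS1 and PRSS2, whose products SPINK1 inhibits, were listed at 0 in every library. PRSS3 had 0.06 and 0 TPM (sgNS) against 0.61 and 1.43 TPM (METTL16 KO), under the minimum mean, and without that minimum it was called higher (adjusted p of 0.0051, limma). Reads of these similar genes can be split among copies. ELANE, the neutrophil elastase gene and target of elafin and SLPI, was at 6.65 and 6.98 TPM (sgNS) against 11.9 and 5.02 TPM (METTL16 KO), with overlapping groups (adjusted p of 0.57, limma). CTSG, the cathepsin G gene, was at 11.1 and 12.3 TPM against 24.7 and 14.5 TPM (log2 fold change 0.69, adjusted p of 0.0049, limma). ST14, which encodes matriptase, rose from 4.55 ± 0.078 to 11.7 ± 1.2 TPM and HTRA1, a secreted serine protease, from 1.08 ± 0.028 to 5.13 ± 0.071 TPM (mean ± SD, 2 libraries each). HPN, the gene of the liver membrane protease hepsin, fell from 24.3 ± 0.52 to 7.44 ± 0.41 TPM (mean ± SD, 2 libraries each). AZU1 was called higher, but at 5.70 TPM in METTL16 KO replicate 1 and 1.32 TPM in replicate 2. It passed the minimum mean of 1 TPM only through the METTL16 KO libraries. Its adjusted p in limma was 0.0090, 0.17 without METTL16 KO replicate 1 and 0.11 without sgNS replicate 2.

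Since PI3, SLPI and SPINK4 are products of mucosal epithelia, genes made beside them there were described. Of 21 genes of mucosal defence and barrier, not all of them for secreted proteins, 5 were tested. Of these, 2 were called higher and 1 lower (median 0.66), beside 7.70% and 3.77% of all genes tested (median 0.16). LCN2, the lipocalin that binds bacterial siderophores, rose from 1.41 ± 0.53 to 5.73 ± 0.72 TPM (mean ± SD, 2 libraries each). S100A8 and S100A9, whose products form calprotectin, moved in opposite directions. S100A8 was at 0.67 and 1.64 TPM in sgNS and rose to 6.60 and 11.3 TPM, whereas S100A9 fell from 632 and 678 TPM to 63.5 and 73.1 TPM (log2 fold changes 2.92 and -3.26, adjusted p of 1.2e-05 and 1.3e-11, limma). PIGR, the receptor that carries immunoglobulin A across mucosal epithelia, had a mean under 1 TPM and was not tested, with 0.01 and 0.03 TPM (sgNS) against 0.72 and 0.97 TPM (METTL16 KO).
Of 18 goblet cell genes, 10 were tested, 3 were called higher and 1 lower (median 0.37), beside 7.70% and 3.77% of all genes tested. KLF4, a transcription factor of goblet cell and epidermal differentiation, rose from 1.96 ± 0.078 to 17.2 ± 1.6 TPM (mean ± SD, 2 libraries each; log2 fold change 3.06, adjusted p of 1.2e-09, limma). The trefoil peptide gene TFF2 rose from 16.6 and 15.7 TPM to 39.4 and 41.7 TPM and TFF1 by 1.07 on the log2 scale, a call that TFF1 lost with median-ratio scaling (0.91) and without METTL16 KO replicate 2 (0.81). AGR2, a disulfide isomerase needed for mucin folding, fell by 1.04 on the log2 scale, the direction of SPINK4, and was at -0.97 without METTL16 KO replicate 1 and -0.99 without sgNS replicate 2. MUC2, the main goblet cell mucin, was at 0 in every library. Of 8 transglutaminases, the enzymes that fix elafin to matrix, TGM2 was the only one tested and had overlapping groups (13.8 ± 1.3 and 12.5 ± 0.47 TPM, mean ± SD, 2 libraries each; adjusted p of 0.16, limma).

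**Figure D3:**
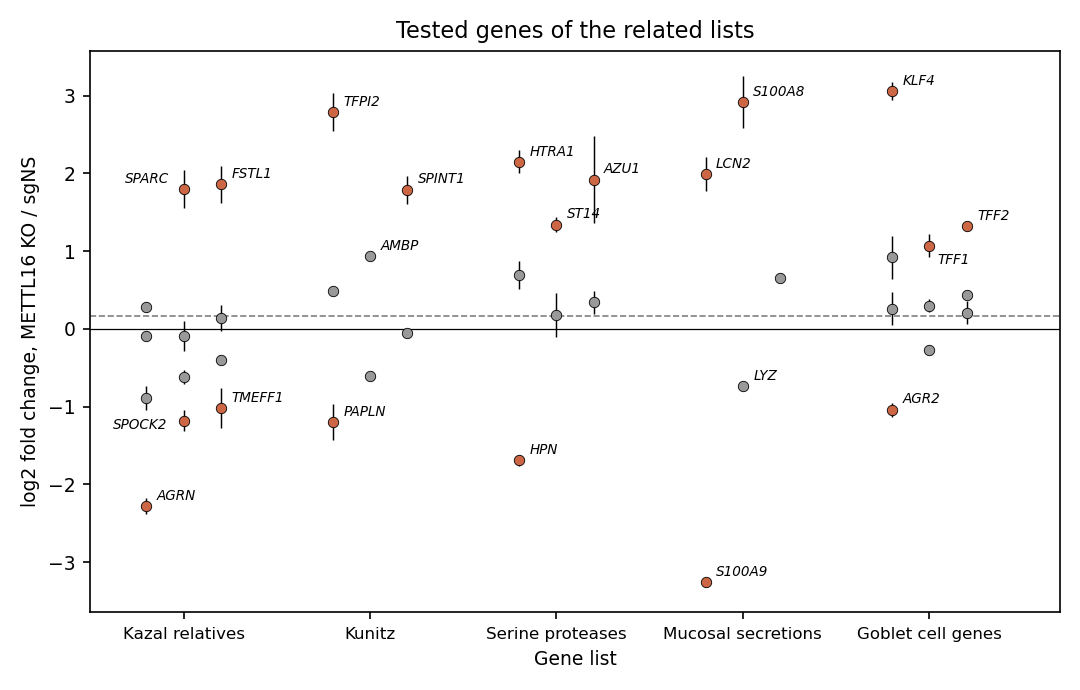
Log2 fold change of METTL16 KO over sgNS for each tested gene of the related lists, with bars of 1 SE from limma; orange points were called, grey points were not, and the dashed line is the median of all genes tested (0.16). The mucosal and goblet cell lists hold genes called in both directions, with KLF4 at 3.06 and S100A9 at -3.26.

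Genes beside the members on the chromosome were compared, within 500 kb between starts. Of 31 neighbours tested, 1 was called higher and 1 lower, with a median log2 fold change of 0.31. Among all genes tested, 7.70% were called higher and 3.77% lower, with a median of 0.16. Both called genes lay on the far side of WFDC2, SPATA25 at 418 kb (1.51) and CTSA, the lysosomal cathepsin A gene, at 422 kb (-1.33). SEMG1 and SEMG2, the semenogelin genes that lie between PI3 and SLPI, were at 0 in all 4 libraries, as was WFDC12 on the other side of PI3. The nearest tested genes beyond SLPI were SDC4, which encodes the heparan sulfate proteoglycan syndecan 4, at 166 and 164 TPM (sgNS) against 292 and 288 TPM (METTL16 KO) (log2 fold change 0.82), then SYS1 (0.81) and DBNDD2 (0.39). On the other side the nearest tested genes were STK4 (-0.29), TOMM34 (0.81) and PABPC1L (0.24, adjusted p of 0.17, limma). On either side of WFDC2 the nearest tested genes were PIGT (-0.28) and DBNDD2 (0.39) toward SLPI and DNTTIP1 (0.63), UBE2C (-0.13) and SNX21 (0.27) away from it. Around SPINK1, 2 genes were tested, JAKMIP2 (0.75) and SPINK5 (0.14). Around SPINK4, 10 genes were tested and 0 were called by limma, among them CHMP5 (0.16), BAG1 (0.77), NFX1 (0.35), B4GALT1 (0.54), SMU1 (0.26) and DNAJA1 (0.80). At an adjusted p under 0.05 without the fold threshold, 25 of the 31 neighbours passed in limma, beside 75.7% of all genes tested.

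**Figure D4:**
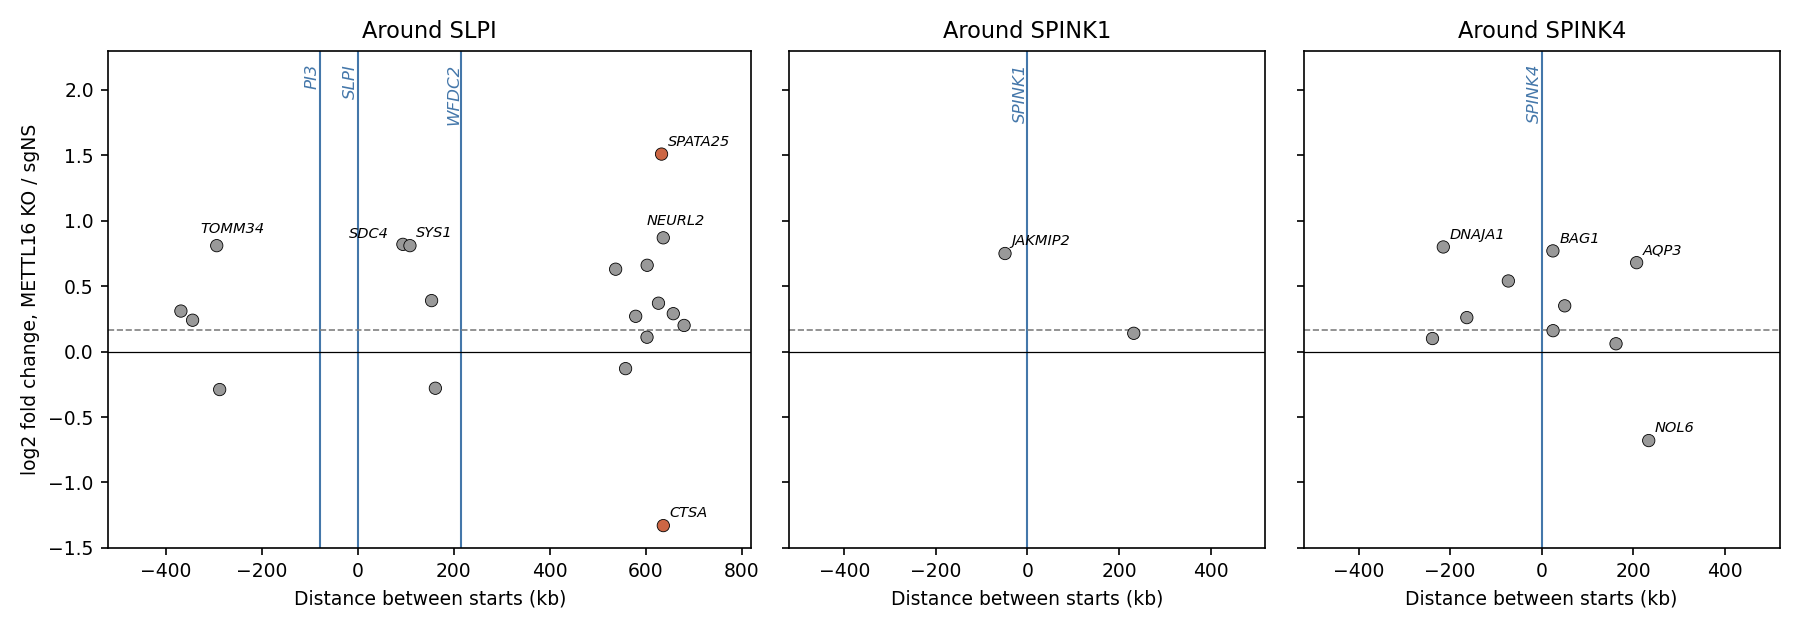
Log2 fold change of METTL16 KO over sgNS against the distance between gene starts in kb, for the tested neighbours of the WAP genes (measured from SLPI), SPINK1 and SPINK4; blue lines mark the members, orange points were called, and the dashed line is the median of all genes tested (0.16). None of the tested genes nearest to PI3, SLPI or SPINK4 reaches an absolute log2 fold change of 1, and SPATA25 and CTSA are the called neighbours.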

How the data were processed

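RNA-seq of 4 Huh7 libraries was analysed, 2 with a non-targeting guide (sgNS) and 2 with a METTL16 guide. According to the study's methods, the authors trimmed the paired-end reads with Cutadapt, aligned them to GRCh38 with STAR and quantified each gene with RSEM, with versions and annotation not given in the sources used here. The deposited values are TPM rounded to 2 decimals. The methods name RPKM, but every library sums to 1000000. The methods name a kit for mRNA and the labels also ribosomal RNA depletion. TPM keeps no counts, so depth is unknown and no counting interval or count test was made.

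From the TPM table, log2(TPM + 0.1) was compared for 11971 genes with a mean of at least 1 TPM by limma 3.58.1 (lmFit, eBayes with trend, Benjamini-Hochberg adjustment) in R 4.3.3, without a block. With 2 libraries per group, single-gene p-values rest on the spread that limma shares across genes. Fold changes on this scale understate changes of low genes. The code of the fit was run on simulated data with independent noise, which is no measure of its error in these libraries. The members and gene lists were chosen with earlier results of these data known. Named were all members, called genes of each list, measured paralogs, near neighbours, called neighbours and the 3 nearest profiles of each member fitted, of which 1 is not reported here. Positions came from GENCODE release 44 (17759 symbols matched, by current or older symbol) and promoters from RefSeq (3 of 5 members matched). Alternatives covered the pseudocount, filter, scaling, variance model, block, call rule and each library left out. Tables and figures were made with Python 3.11.15, pandas 2.3.3, numpy 2.4.6 and matplotlib 3.10.9.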

Additional observations from a re-analysis of the deposited data

How the results depend on the processing

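SLPI had a log2 fold change of 3.40 with a pseudocount of 1, 6.09 with 0.01, 5.34 under median-ratio scaling and 4.64 under quantile normalization, SPINK4 of -3.75 with a pseudocount of 1 and -4.69 with quantile normalization, and SPINK1 of 0.87 and 1.23 with the 2 scalings. Leaving out 1 library gave 5.39 to 5.56 for SLPI, 1.02 to 1.04 for SPINK1 and -4.59 to -4.15 for SPINK4. METTL16 was lower and past an adjusted p of 0.05 in limma under all alternatives, from -0.68 to -0.45.

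Of all genes tested, 922 were called higher and 451 lower. The higher count was 1555 without a filter and 575 with a minimum mean of 5 TPM, as more or fewer genes were tested. Quantile normalization gave 586 higher and 698 lower (45.6% higher, against 67.2% as reported and 50.6% with median-ratio scaling), and dropping the fold threshold 5999 and 3065. The 8 inhibitor relatives called became 4 with a pseudocount of 1, 2 with a minimum mean of 5 TPM and 15 without the fold threshold. The 4 serine proteases became 2 with a minimum mean of 5 TPM. The 7 mucosal and goblet genes became 17 without a filter, 13 without the fold threshold and 4 with the unmoderated model. The 2 neighbours became 10 without a filter, 1 with a minimum mean of 5 TPM and 25 without the fold threshold. Leaving out 1 library gave 7 to 8 relatives, 3 to 5 proteases, 6 to 8 mucosal and goblet genes and 2 to 3 neighbours, and NEURL2 was the neighbour gained. A pseudocount of 1 put PAPLN (-0.69), SPARC (0.97), SPOCK2 (-0.89), TMEFF1 (-0.81), AGR2 (-0.93) and TFF1 (0.93) under the fold threshold. The unmoderated model left TFPI2, LCN2, S100A8, TFF1, TMEFF1 and AZU1 with adjusted p of 0.058, 0.064, 0.084, 0.087, 0.23 and 0.30. Where scaling, pseudocount or model changed a value, the cause was not tested.

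A fit blocked on the replicate number (replicate block) gave 923 higher and 451 lower, with 8 relatives, 4 proteases, 7 mucosal and goblet genes and 2 neighbours called and METTL16 at -0.50, so that no count moved by over 1.5 times. Deviations of same-numbered libraries had a correlation of -0.0445 across genes. With 2 libraries per group this cannot tell whether same-numbered libraries shared a culture, transduction or batch. The unknown depth limits WFDC2 and every other gene under 1 TPM.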

Other observations

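The 4 neutrophil granule genes of the serine protease family list were all higher in METTL16 KO replicate 1 than in replicate 2. AZU1 was at 5.70 and 1.32 TPM, ELANE at 11.9 and 5.02 TPM, CTSG at 24.7 and 14.5 TPM and PRTN3 at 0.54 and 0.20 TPM. The sgNS libraries lay at 1.09 and 0.38, 6.65 and 6.98, 11.1 and 12.3, and 0.56 and 1.02 TPM. The leukocyte markers PTPRC (0.48 and 0.15 TPM), CD3E (0.33 and 0.12 TPM) and MPO (0.46 and 0.24 TPM) were also higher in METTL16 KO replicate 1, at levels under 1 TPM, while ITGAM (0.05 and 0.18 TPM) was lower. PI3, SLPI, SPINK1 and SPINK4 differed far less between these 2 libraries.

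LYZ, the lysozyme gene, an antibacterial enzyme of mucosal secretions and granules, was at 1532 ± 31 TPM in sgNS and 916 ± 11 TPM in METTL16 KO (mean ± SD, 2 libraries each), with a difference of -0.74 on the log2 scale (adjusted p of 1.9e-09, limma). C5orf46, a small gene 74.9 kb from SPINK1, was listed at 0 in sgNS, against 0.41 and 0.45 TPM in METTL16 KO. These genes were singled out after their values were seen.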
